A study of Homo sapiens with 20 samples.

Results

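Proximal T cell receptor signaling was examined through 8 genes whose products act just below the receptor: the tyrosine kinases LCK, FYN and ZAP70, the adaptors LAT and LCP2 (the gene of SLP-76), the lipase PLCG1, and the negative regulators PTPN22 and UBASH3A. The genes were taken by name, with earlier results of these data known, and each name matched 1 row of a gene table of 60719 genes. All 8 passed the filter on low counts that left 16327 genes for testing. The study asked how loss of CD47, a surface receptor for thrombospondin-1, alters the transcriptome of Jurkat cells, a human T cell leukemia line. Poly(A) RNA sequencing gave 20 libraries, 10 of wild-type (WT) Jurkat cells and 10 of JinB8, a CD47-deficient somatic mutant of Jurkat that is referred to as CD47-.

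Within each line, the libraries at 1 h were untreated cells (UT), cells on plates coated with antibodies against CD3 and CD28 (CD3+CD28), cells on such plates with thrombospondin-1 (CD3+CD28+TSP1), and cells with thrombospondin-1 alone (TSP1). The 3 treated conditions were collected again at 3 h and at 6 h, while untreated cells were present at 1 h only. Thrombospondin-1 was used at 1 µg/mL and anti-CD28 at 4 µg/mL, and all cells of both lines were kept in the same serum-free HITES medium for the experiment. Each condition was sequenced once, so the 10 libraries of a line differ in treatment and time, and no source states that they came from separate cultures. The p-values below therefore measure spread between such libraries. JinB8 is a single mutant line, so the absence of CD47 and any other difference between the lines cannot be told apart.

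When the T cell receptor is engaged, LCK phosphorylates the CD3 and zeta chains, ZAP70 docks on them, and ZAP70 in turn phosphorylates LAT and SLP-76. These adaptors bring in phospholipase C gamma 1, which cleaves a membrane phospholipid into the messengers that release calcium and activate Ras and protein kinase C. The phosphatase encoded by PTPN22 and the UBASH3A protein restrain these steps. Jurkat cells carry all of these components and have long been used to work out their order.

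Sequence stretches of 4 members frame the results that follow. FYN has mutually exclusive exons at the start of its kinase domain, and PTPN22-211 skips an exon that PTPN22-201 keeps, so these 3 exons tell apart isoforms whose shares are given further on. The exons were read from GRCh38 with GENCODE 44 models and are given 5′ to 3′ on the coding (minus) strand, with no capitals because each exon is wholly alternative. The FYN-205 exon, the form known from T cells, has 156 bases at chr6:111699515-111699670, the FYN-203 exon has 165 bases at chr6:111700104-111700268, and the PTPN22 exon has 72 bases at chr1:113856548-113856619. All are protein coding throughout.
FYN-205 exon: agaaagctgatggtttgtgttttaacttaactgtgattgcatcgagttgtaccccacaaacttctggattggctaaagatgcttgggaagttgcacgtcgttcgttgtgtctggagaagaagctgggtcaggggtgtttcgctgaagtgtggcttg
FYN-203 exon: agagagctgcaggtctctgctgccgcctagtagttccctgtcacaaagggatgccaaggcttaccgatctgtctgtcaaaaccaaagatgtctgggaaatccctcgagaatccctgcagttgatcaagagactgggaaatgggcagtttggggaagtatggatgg
PTPN22-201 exon: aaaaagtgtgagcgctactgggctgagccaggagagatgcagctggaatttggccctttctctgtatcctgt

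The promoters of ZAP70 and PLCG1 are shown because these genes differed between the lines in opposite directions. They are RefSeq windows (GRCh38.p14) of 250 bases before to 50 bases after a transcription start, on the plus strand, at chr2:97713326-97713625 for ZAP70 and chr20:41137293-41137592 for PLCG1. The RefSeq set held an entry for 7 of the 8 members and 3 windows for ZAP70, of which the one shown is first in position. The ZAP70 window spans the annotated start of the coding form ZAP70-201 (chr2:97713576), but not that of ZAP70-205 (chr2:97732929). The PLCG1 window lies downstream of the annotated starts of PLCG1-201 (chr20:41136960) and PLCG1-202 (chr20:41137237), the PLCG1 forms examined further on. Capitals mark matches on either strand to the letters GGAAG (an ETS core), TGTGGT (a RUNX site) or GGGCGG (a GC box).
ZAP70 promoter: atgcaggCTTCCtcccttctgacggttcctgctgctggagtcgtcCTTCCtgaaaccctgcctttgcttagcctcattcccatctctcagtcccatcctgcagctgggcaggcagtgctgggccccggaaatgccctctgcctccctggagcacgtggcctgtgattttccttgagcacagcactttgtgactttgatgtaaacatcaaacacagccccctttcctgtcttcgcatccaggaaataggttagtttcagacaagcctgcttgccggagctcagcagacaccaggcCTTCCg
PLCG1 promoter: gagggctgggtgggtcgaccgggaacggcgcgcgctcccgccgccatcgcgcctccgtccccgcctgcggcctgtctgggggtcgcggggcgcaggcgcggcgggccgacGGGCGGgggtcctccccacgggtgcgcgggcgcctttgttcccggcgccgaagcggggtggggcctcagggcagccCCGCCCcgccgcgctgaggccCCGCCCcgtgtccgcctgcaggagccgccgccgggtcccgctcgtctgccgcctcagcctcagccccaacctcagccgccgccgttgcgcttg

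The ZAP70 window held 3 matches to GGAAG and 0 to GGGCGG, and the PLCG1 window held 3 to GGGCGG and 0 to GGAAG, while neither held TGTGGT. Among 35116 promoters of the same length, 71.9% held GGAAG, 13.1% TGTGGT and 45% GGGCGG, so both common motifs are widespread. G and C made up 56% of the ZAP70 window and 81% of the PLCG1 window. The other ZAP70 windows differed from it: that at chr2:97713632-97713931 held 0 of either motif (66% G and C), and that at chr2:97733050-97733349 held 4 matches to GGGCGG and 0 to GGAAG (67.3%). Because the PLCG1 window is not upstream of the PLCG1 forms examined, its letters and those of the ZAP70 window are not a like-for-like contrast. No binding was measured, and a match is only a description of the letters.

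Libraries held 16107921 to 31737616 expected counts, and 3 counts correspond to 0.0979 to 0.156 CPM (counts scaled to library size with TMM factors). CD47 mRNA served as a check of the labels: it ranged from 253 to 372 CPM (median 320) in WT and from 124 to 165 CPM (median 148) in CD47-, without overlap (log2 difference -1.10 ± 0.078 SE, edgeR adjusted p = 1.05e-10). All 10 T cell markers checked were detected in both lines, with summed levels of 1561 to 2254 CPM in WT and 1333 to 2119 CPM in CD47-. TRAC, the alpha chain constant gene of the receptor, ran from 122 to 301 CPM in WT and from 15.0 to 28.7 CPM in CD47-. B cell markers summed to 35.6 to 56.0 CPM in WT and 5.86 to 13.7 CPM in CD47-, mostly from CD79A (means of 42.2 and 6.75 CPM) and CD79B (1.89 and 2.47 CPM), the 2 of 5 that passed the filter, while NK cell markers summed to 1.25 to 9.18 and 5.97 to 12.5 CPM, monocyte markers to 1.19 to 7.19 and 1.01 to 6.00 CPM, and epithelial or fibroblast markers to 3.47 to 7.36 and 10.9 to 14.5 CPM. The defining B cell genes MS4A1 and PAX5 had means of at most 0.125 CPM in either line, and the part of these markers in the results was not tested. The CD47- CD3+CD28+TSP1 library at 3 h had the lowest depth and stood apart, with a median correlation of 0.98126 with libraries of its line and time against at least 0.98765 for the others, so members whose call it changes are given with and without it. In bulk RNA, fewer expressing cells and less RNA per cell cannot be told apart.

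Divided by transcript length, the members spanned a wide range of levels. LCK was the most abundant at 306 ± 34.8 CPM per kb (SD, 20 libraries), followed by LAT at 112 ± 33.8 and ZAP70 at 63.4 ± 26.2 CPM per kb. PLCG1 (28.1 ± 7.15), FYN (26.1 ± 2.29) and LCP2 (23.6 ± 7.24 CPM per kb) followed, then PTPN22 (13.2 ± 3.09) and UBASH3A (12.4 ± 3.61 CPM per kb). Within each of these sets, any pair of means differed by less than the larger SD of the pair. These SDs are pooled over both lines, so they include the difference between the lines. Over all 20 libraries, LCK alone had a range (232 to 361 CPM per kb) that did not meet that of its neighbour in the pooled order, since LAT ran from 58.7 to 165. Within CD47-, LAT (78.1 to 165) also lay wholly above ZAP70 (27.4 to 65.3). In the same line PLCG1 (28.2 to 39.9) lay wholly above FYN (22.8 to 27.8), and FYN above UBASH3A (9.85 to 17.5 CPM per kb). Within WT, PLCG1 (16.3 to 26.6) and FYN (21.5 to 30.1 CPM per kb) overlapped. By mean, FYN ranked 4 in WT and 6 in CD47-. PTPN22 ranked above UBASH3A in WT and below it in CD47-. The kinase that starts the cascade was thus present at the highest RNA level of the set and both negative regulators at the lowest. The length of LCK rests on isoforms that hold 31.7% of its counts, because its main isoform in the table is absent from GENCODE 44.

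**Figure D1:**
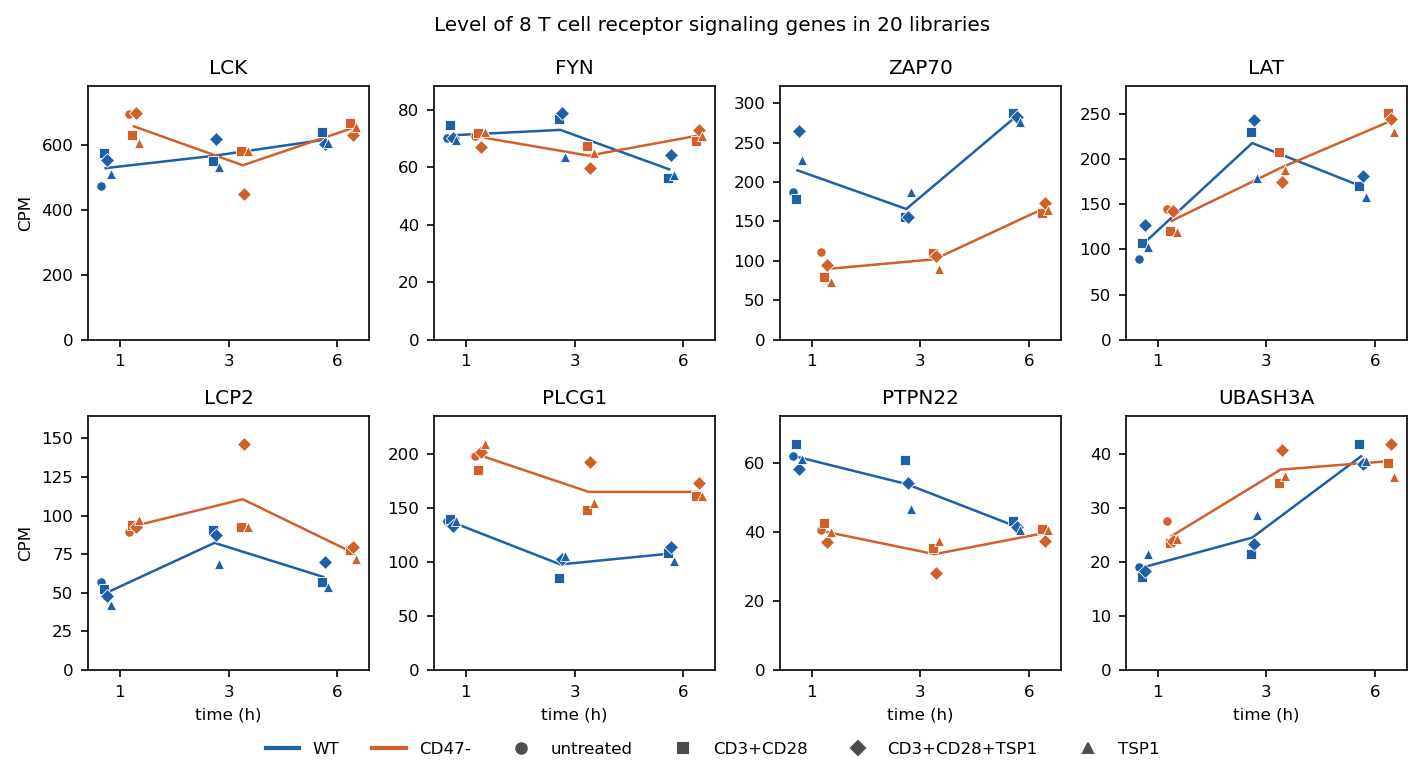
Level of each of the 8 genes (CPM, linear axes) against time of collection in h, with lines through the mean of each cell line and a marker shape for each treatment. ZAP70 lies lower and PLCG1 and LCP2 higher in CD47- at every time point, LAT and UBASH3A climb after 1 h in both lines, and LCK and FYN stay within narrower relative ranges.

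Comparison of all 10 CD47- with all 10 WT libraries asked which members differ between the lines whatever the treatment or time. Of the 8 members, 4 differed, PLCG1 and LCP2 being higher and ZAP70 and PTPN22 lower in CD47-. Over all genes tested, 40.4% passed the same threshold (edgeR adjusted p under 0.05), so a count of 4 in 8 is near the background. The median log2 difference was 0.16 over the members and -0.01 over all genes.

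Among the kinases, ZAP70 showed the largest difference. This kinase binds the phosphorylated receptor chains and relays the signal to LAT. Its level was 155 CPM at the lowest, 208 at the median and 287 at the highest in WT, and 72.7, 108 and 173 CPM in CD47-. The ranges overlapped over all times, but when each CD47- library was set beside the WT library of equal treatment and time, it was lower in all 10 pairs. ZAP70 in CD47- was 0.528-fold of WT (log2 difference -0.92 ± 0.17 SE, edgeR adjusted p = 0.000128). With any single library left out, the adjusted p was at most 0.000378.

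LCK, the Src family kinase held at the CD4 coreceptor, ranged from 473 CPM (median 565) to 638 in WT and from 449 CPM (median 630) to 697 in CD47-. The ranges overlapped widely, although the CD47- library was higher in 9 of the 10 pairs. The log2 difference of 0.13 ± 0.076 SE did not pass (edgeR adjusted p = 0.185). The exception was the CD47- CD3+CD28+TSP1 library at 3 h, the one that stood apart, and without it the difference was 0.19 (edgeR adjusted p = 0.0171). With limma-voom after quantile normalization it was 0.26 and passed (limma adjusted p = 0.002). FYN, the other Src family kinase of T cells, was at 56.3 CPM (median 69.9) to 78.9 in WT and at 59.8 CPM (median 70.0) to 72.9 in CD47-. Its log2 difference of 0.01 had an interval of 2 SE from -0.12 to 0.15 (edgeR adjusted p = 0.902), and 6 of 10 pairs were higher in CD47-.

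The adaptors differed from each other. LCP2, which encodes the cytosolic scaffold SLP-76, was at 41.9 CPM (median 57.0) to 90.6 in WT and at 72.0 CPM (median 92.4) to 147 in CD47-. The highest WT libraries reached into the CD47- range, yet CD47- was higher in 10 of 10 matched pairs. LCP2 was 1.49-fold higher (log2 difference 0.57 ± 0.14 SE, edgeR adjusted p = 0.00206), and without the library that stood apart, in which it was highest, the difference was 0.50 (adjusted p = 0.00286). In the CD3+CD28 and CD3+CD28+TSP1 libraries alone, which are fewer, it was 0.54 and did not pass (edgeR adjusted p = 0.0536). LAT, the membrane scaffold, was at 89.1 CPM (median 164) to 243 in WT and at 119 CPM (median 181) to 250.5 in CD47-. These ranges nearly coincided, 8 of 10 pairs were higher in CD47-, and the log2 difference of 0.20 ± 0.19 SE did not pass (edgeR adjusted p = 0.423), but with time as a term it was 0.22 and passed (edgeR adjusted p = 0.0426).

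PLCG1, the phospholipase that LAT and SLP-76 bring to the membrane, was the only member whose levels did not overlap between the lines. WT libraries ran from 85.6 CPM (median 111) to 139.7 and CD47- libraries from 148 CPM (median 179) to 209.6. Such separation was seen for 11.5% of all genes tested. PLCG1 was 1.53-fold higher in CD47- (log2 difference 0.62 ± 0.095 SE, edgeR adjusted p = 1.51e-05), with every matched pair in the same direction. PLCG1 shares 2.78% of its exonic bases with ZHX3 on the opposite strand (at most 45 CPM), and whether counting used strand is not given in the sources used here. Of all genes, 31.8% kept 1 direction in all 10 pairs, and among the members PLCG1, LCP2 and ZAP70 did.

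Of the negative regulators, PTPN22 encodes a phosphatase that removes activating phosphates from LCK and ZAP70. It was at 40.5 CPM (median 56.0) to 65.5 in WT and at 28.0 CPM (median 38.6) to 42.5 in CD47-. CD47- was lower in 9 of 10 pairs and the ranges touched only through the WT libraries at 6 h. The level was 0.712-fold of WT (log2 difference -0.49 ± 0.099 SE, edgeR adjusted p = 0.000346). In the untreated and TSP1 libraries alone, which are fewer, it was -0.39 and did not pass (edgeR adjusted p = 0.12). UBASH3A, which encodes STS-2, a ubiquitin-binding relative of the phosphatase STS-1, was at 17.3 CPM (median 22.5) to 41.9 in WT and at 23.6 CPM (median 35.3) to 42.0 in CD47-. Its log2 difference of 0.28 ± 0.17 SE did not pass (edgeR adjusted p = 0.207), but in a fit that paired libraries by treatment and time (replicate block) it was 0.32 and passed (edgeR adjusted p = 0.00693), as it did with time as a term (0.32, adjusted p = 0.00142).

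**Figure D2:**
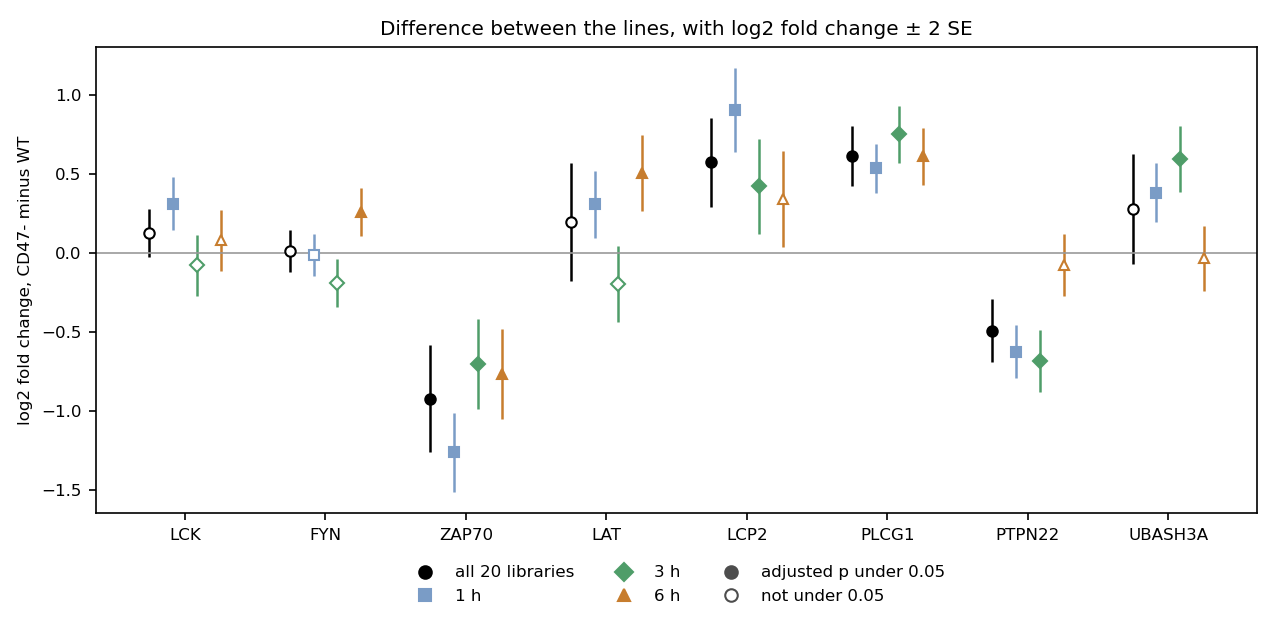
Log2 difference in level between CD47- and WT for each of the 8 genes, over all 20 libraries and at 1, 3 and 6 h, with bars of 2 SE, filled where the edgeR adjusted p is under 0.05. ZAP70 lies below 0 and PLCG1 above 0 in every comparison, while PTPN22 and UBASH3A approach 0 at 6 h.

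Fits at each time point asked whether these differences were present throughout. At 1 h 7 of 8 members differed against 48.4% of all genes, at 3 h 5 of 8 against 46.3%, and at 6 h 4 of 8 against 46.6%. In a model with treatment and time as terms, in which the lines are compared in the TSP1 condition, 4 members passed at 1 h, and whether any of these counts exceeds the background share was not tested. ZAP70 and PLCG1 differed at all 3 time points. Their levels, and those of LCP2, did not overlap at any of them, as was the case for 45.2% of genes at 1 h, 47.8% at 3 h and 64.9% at 6 h.

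At 1 h, ZAP70 was at 188 (UT), 179 (CD3+CD28), 265 (CD3+CD28+TSP1) and 228 CPM (TSP1) in WT and at 111, 80.0, 94.9 and 72.7 CPM in the same order in CD47-. Every CD47- library was thus below every WT library, at a log2 difference of -1.26 ± 0.13 SE (edgeR adjusted p = 6.04e-08). At 3 h the levels were 155 (CD3+CD28), 156 (CD3+CD28+TSP1) and 187 CPM (TSP1) in WT against 110, 106 and 89.4 CPM, and at 6 h 287, 283 and 276 CPM against 161, 173 and 165 CPM. The log2 differences were -0.70 ± 0.14 SE at 3 h (edgeR adjusted p = 0.000503) and -0.76 ± 0.14 SE at 6 h (adjusted p = 0.000175).

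PLCG1 at 1 h was at 138 (UT), 139.7 (CD3+CD28), 133 (CD3+CD28+TSP1) and 137.5 CPM (TSP1) in WT and at 198, 185, 202 and 209.6 CPM in CD47-. The 4 WT libraries were tightly grouped and lay well below the 4 CD47- libraries. At 3 h it was at 85.6 (CD3+CD28), 102 (CD3+CD28+TSP1) and 105 CPM (TSP1) against 148, 192 and 154 CPM, and at 6 h at 108, 114 and 101 CPM against 161, 173 and 161 CPM. The differences were close to each other, at 0.54 ± 0.078, 0.75 ± 0.090 and 0.61 ± 0.090 (log2 ± SE) at 1, 3 and 6 h, with edgeR adjusted p of 9.50e-06, 1.14e-06 and 1.22e-05.

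For LCP2 the gap between the lines was widest at 1 h. WT libraries then held 57.2 (UT), 52.2 (CD3+CD28), 47.8 (CD3+CD28+TSP1) and 41.9 CPM (TSP1), and CD47- libraries 89.2, 93.9, 92.3 and 97.3 CPM, a log2 difference of 0.91 ± 0.13 SE (edgeR adjusted p = 1.06e-05). At 3 h WT libraries held 90.6 (CD3+CD28), 87.7 (CD3+CD28+TSP1) and 68.7 CPM (TSP1) and CD47- libraries 92.5, 147 and 92.5 CPM. The groups did not overlap, but the margin was narrow apart from the single value of 147 CPM: the difference of 0.42 (edgeR adjusted p = 0.027) became 0.19 (adjusted p = 0.197) without the CD47- CD3+CD28+TSP1 library at 3 h and 0.31 (adjusted p = 0.137) without the WT TSP1 library at 3 h. At 6 h the levels were 56.7, 70.1 and 54.0 CPM in WT and 77.4, 79.7 and 72.0 CPM in CD47-, a difference of 0.34 that did not pass (adjusted p = 0.0733) but did without the CD47- CD3+CD28+TSP1 library at 3 h (0.35, adjusted p = 0.0101) or the WT CD3+CD28+TSP1 library at 6 h (0.46, adjusted p = 0.0324). Over 25 alternative settings, which include each fit without 1 library, the 6 h difference ran from 0.265 to 0.462. It passed in 6 of them, so in others besides these 2 fits.

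PTPN22 passed at 1 h and 3 h. At 1 h it was at 62.0 (UT), 65.5 (CD3+CD28), 58.1 (CD3+CD28+TSP1) and 61.0 CPM (TSP1) in WT and at 40.5, 42.5, 37.0 and 40.0 CPM in CD47-. At 3 h the values were 60.9 (CD3+CD28), 54.0 (CD3+CD28+TSP1) and 46.6 CPM (TSP1) against 35.2, 28.0 and 37.3 CPM. The lines did not overlap at either time, with log2 differences of -0.62 ± 0.084 SE and -0.68 ± 0.099 SE (edgeR adjusted p = 4.11e-06 and 1.18e-05). At 6 h WT libraries had 43.1, 41.3 and 40.5 CPM and CD47- libraries 40.9, 37.2 and 40.6 CPM. These overlapped, and the difference of -0.07 had an interval of 2 SE from -0.27 to 0.12 (edgeR adjusted p = 0.578).

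UBASH3A behaved alike in time but in the opposite direction. At 1 h WT libraries had 19.1 (UT), 17.3 (CD3+CD28), 18.4 (CD3+CD28+TSP1) and 21.4 CPM (TSP1) against 27.6, 23.6, 24.0 and 24.3 CPM in CD47-, and at 3 h 21.6 (CD3+CD28), 23.4 (CD3+CD28+TSP1) and 28.7 CPM (TSP1) against 34.8, 40.8 and 35.96 CPM. CD47- was higher without overlap at both times, by 0.38 ± 0.092 and 0.60 ± 0.10 (log2 ± SE, edgeR adjusted p = 0.0018 and 0.000109). In the model with treatment and time as terms, the difference at 1 h was 0.17 and did not pass (edgeR adjusted p = 0.32). At 6 h the values of 41.9, 38.2 and 38.8 CPM in WT and 38.4, 42.0 and 35.8 CPM in CD47- overlapped, with a difference of -0.03 (adjusted p = 0.83).

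LCK passed at 1 h, LAT at 1 h and 6 h, and FYN at 6 h. LCK at 1 h was at 473 (UT), 576 (CD3+CD28), 553 (CD3+CD28+TSP1) and 511 CPM (TSP1) in WT and at 695, 629, 697 and 605 CPM in CD47-, higher without overlap by 0.31 ± 0.084 (log2 ± SE, edgeR adjusted p = 0.00427). In the model with treatment and time as terms, neither LCK at 1 h (0.32, edgeR adjusted p = 0.0655) nor LAT at 1 h (0.29, 0.0601) passed. With time points fitted as reported, LAT at 1 h was higher by 0.31 (adjusted p = 0.0204), a call lost without the WT untreated library at 1 h (0.23, adjusted p = 0.0815), the WT TSP1 library at 1 h (0.29, 0.0537), the CD47- untreated library at 1 h (0.26, 0.0675) or the CD47- CD3+CD28+TSP1 library at 1 h (0.27, 0.0656). Its direction was the same in all of these fits. At 6 h LAT stood at 170 (CD3+CD28), 181 (CD3+CD28+TSP1) and 158 CPM (TSP1) in WT and at 250.5, 243 and 230 CPM in CD47-, higher without overlap by 0.51 ± 0.12 (edgeR adjusted p = 0.00173). FYN at 6 h stood at 56.3, 64.3 and 57.4 CPM in WT and at 69.1, 72.9 and 71.1 CPM in CD47-, also without overlap (0.26 ± 0.076, adjusted p = 0.00867). At 3 h FYN was lower by 0.19 on the log2 scale with an adjusted p of 0.0504, and it passed without the WT TSP1 library at 3 h (-0.28, adjusted p = 0.00372), the CD47- CD3+CD28 library at 3 h (-0.22, 0.0421) or the WT CD3+CD28+TSP1 library at 6 h (-0.19, 0.046). LAT at 3 h was lower by 0.20 (adjusted p = 0.198), and it passed without the WT TSP1 library at 3 h (-0.32, adjusted p = 0.0392). The sign of the LAT and FYN differences at 3 h was thus opposite to that at 6 h, although neither passed at 3 h with all libraries. Without the CD47- CD3+CD28+TSP1 library at 3 h they were -0.11 for LAT and -0.12 for FYN (edgeR adjusted p = 0.522 and 0.246). At 3 h both genes were lower in CD47- in the CD3+CD28 and CD3+CD28+TSP1 pairs. In the TSP1 pair both were higher (log2 difference 0.07 for LAT and 0.03 for FYN).

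Changes over time were measured within each line with treatment held as a term, so that 3 h or 6 h libraries were compared with 1 h libraries. Since untreated cells were sampled at 1 h only, time since plating and any slow response to treatment cannot be told apart. In WT, 5 of 8 members changed at 3 h (34.3% of all genes) and 7 of 8 at 6 h (50.5%). In CD47-, 6 of 8 changed at 3 h (38%) and 5 of 8 at 6 h (53%). The CD47- count at 3 h was 4 without the CD47- CD3+CD28+TSP1 library at 3 h, and 2 to 6 over the fits that each left out 1 library. Whether these counts exceed the background share was not tested.

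LAT and UBASH3A rose in both lines. LAT in WT went from 89.1 (UT), 107 (CD3+CD28), 127 (CD3+CD28+TSP1) and 102 CPM (TSP1) at 1 h to 230 (CD3+CD28), 243 (CD3+CD28+TSP1) and 179 CPM (TSP1) at 3 h, a log2 change of 0.95 ± 0.087 SE (edgeR adjusted p = 3.20e-06), and was 0.61 above 1 h at 6 h (adjusted p = 5.28e-05). In CD47- it went from 144, 120, 143 and 119 CPM to 208, 174 and 187.5 CPM at 3 h, a change of 0.58 ± 0.087 (adjusted p = 0.0002), and to 0.92 above 1 h at 6 h (adjusted p = 9.44e-07). The highest LAT levels were thus at 3 h in WT and at 6 h in CD47-. Of its exonic bases, 46.5% are shared with ENSG00000261067, a gene on the same strand whose level was at most 8.1 CPM, and reads in those bases are assigned by estimate.

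UBASH3A rose in WT by 0.36 ± 0.096 at 3 h and 1.06 ± 0.095 at 6 h (log2 ± SE, edgeR adjusted p = 0.00931 and 6.69e-07), a 2.09-fold rise at 6 h. In CD47- the rise was 0.63 ± 0.093 at 3 h and 0.69 ± 0.093 at 6 h (adjusted p = 0.000185 and 2.70e-05). The later libraries lay above the 1 h libraries in both lines, and the same was true of LAT. Levels that did not overlap those at 1 h were seen for 41.4% of genes at 3 h and 56.5% at 6 h in WT, and for 38.2% and 61.1% in CD47-. The WT call at 3 h was lost without the WT CD3+CD28 library at 1 h (0.32, adjusted p = 0.0505) or the WT TSP1 library at 3 h (0.28, adjusted p = 0.0778).

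ZAP70 was higher at 6 h than at 1 h in both lines, by 1.02 ± 0.11 in CD47- (2.03-fold, edgeR adjusted p = 3.90e-06) and by 0.35 ± 0.11 in WT (adjusted p = 0.0169). The WT rise was lost without the WT CD3+CD28 library at 1 h (0.20, adjusted p = 0.177), the WT TSP1 library at 1 h (0.31, 0.0799) or the WT CD3+CD28 library at 6 h (0.22, 0.158), although the 3 WT libraries at 6 h lay above all 4 at 1 h. At 3 h it fell in WT by 0.42 (adjusted p = 0.00881), a call lost without the WT CD3+CD28+TSP1 library at 1 h (-0.28, 0.0714) or at 3 h (-0.32, 0.0728). In CD47- it rose at 3 h by 0.31 (adjusted p = 0.0421), and that call was lost in 6 of 20 fits that each left out 1 library, with adjusted p up to 0.198.

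PLCG1 fell in both lines. The log2 changes were -0.49 ± 0.087 at 3 h and -0.35 ± 0.087 at 6 h in WT (edgeR adjusted p = 0.000714 and 0.0043) and -0.28 ± 0.086 and -0.27 ± 0.086 in CD47- (adjusted p = 0.0212 and 0.0164). WT levels at 3 h and 6 h lay below all those at 1 h, as did CD47- levels at 6 h but not at 3 h. The CD47- calls were lost in 6 of 20 fits at 3 h (adjusted p up to 0.122) and in 3 of 20 at 6 h (up to 0.113).

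PTPN22 fell in WT by 0.56 at 6 h (SE 0.077, edgeR adjusted p = 3.56e-05), with every 6 h library below every 1 h library, and was lower by 0.20 at 3 h (adjusted p = 0.0619), which passed without the CD47- CD3+CD28+TSP1 library (-0.20, 0.023) or the CD47- TSP1 library at 3 h (-0.20, 0.0497). In CD47- it fell by 0.25 at 3 h (adjusted p = 0.0215, lost in 4 of 20 fits, among them the fit without the CD47- CD3+CD28+TSP1 library at 3 h at -0.17 and 0.107) and stood at -0.01 at 6 h (adjusted p = 0.942). LCP2 rose in WT by 0.79 ± 0.13 at 3 h (edgeR adjusted p = 0.000275) and by 0.35 at 6 h (adjusted p = 0.032, lost in 7 of 20 fits, up to 0.2). In CD47- LCP2 was 0.20 higher at 3 h (adjusted p = 0.223), but at -0.01 (adjusted p = 0.942) without the CD47- CD3+CD28+TSP1 library at 3 h, and it fell by 0.31 at 6 h (adjusted p = 0.0462, lost in 13 of 20 fits, up to 0.243). Only the first of these LCP2 calls was kept in all 20 fits.

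The Src family kinases had 2 calls among their 8 changes. LCK was 0.05 higher at 3 h and 0.17 higher at 6 h in WT (edgeR adjusted p = 0.724 and 0.158), the latter passing without the CD47- CD3+CD28+TSP1 library at 3 h (0.17, adjusted p = 0.0385). Over 26 alternative settings, which include the fits without 1 library, LCK at 6 h in WT ran from 0.13 to 0.27 and passed in 3. In CD47- LCK fell by 0.27 at 3 h (adjusted p = 0.0431), a call lost in 14 of 20 fits with adjusted p up to 0.284, among them that without the CD47- CD3+CD28+TSP1 library at 3 h (-0.12, 0.268), and stood at 0.01 at 6 h (adjusted p = 0.93). FYN fell in WT by 0.27 at 6 h (SE 0.074, adjusted p = 0.00752), all 3 libraries at 6 h lying below the 4 at 1 h. Its other changes were 0.03 at 3 h in WT and -0.14 and 0.01 at 3 h and 6 h in CD47- (adjusted p = 0.819, 0.16 and 0.902).

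**Figure D3:**
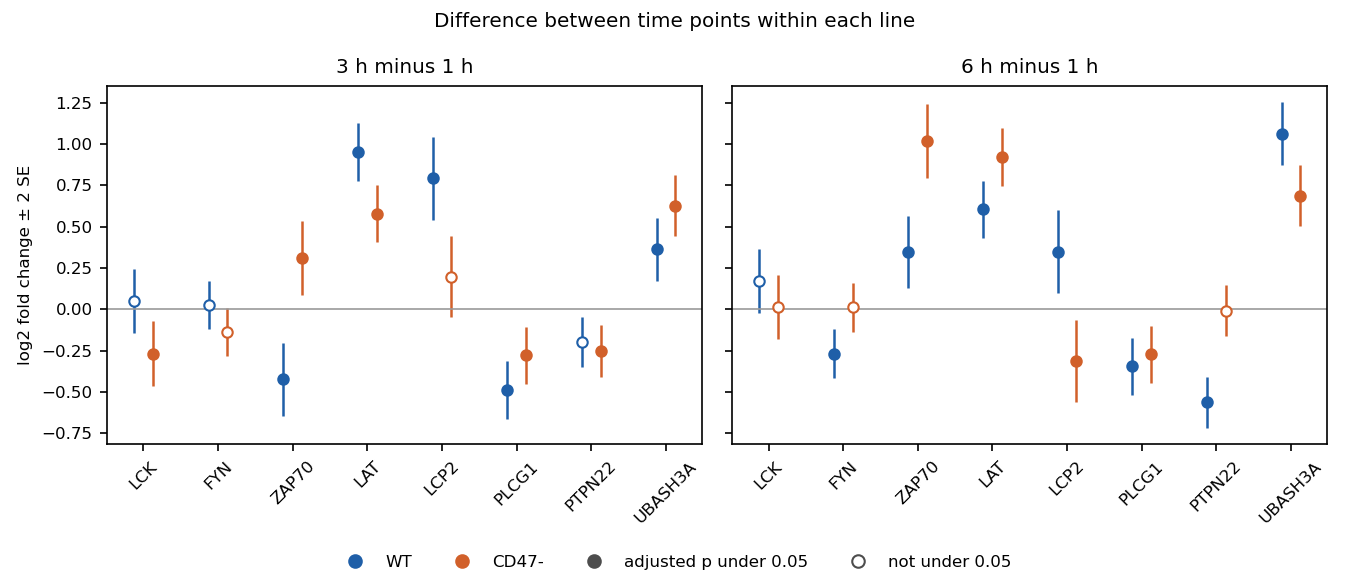
Log2 change in level from 1 h to 3 h and from 1 h to 6 h in WT and CD47- for each of the 8 genes, with bars of 2 SE, from the fit with treatment as a term. LAT and UBASH3A lie above 0 in all 4 comparisons and PLCG1 below 0, while ZAP70 at 3 h lies on opposite sides of 0 in the lines.

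Whether the lines changed differently over time was tested as the difference between their time changes. At 3 h 1 of 8 members differed (4.28% of all genes) and at 6 h 3 of 8 (16.6%), and without the CD47- CD3+CD28+TSP1 library at 3 h the counts were 2 and 6. ZAP70 changed more upward in CD47- than in WT, by 0.73 ± 0.16 at 3 h (log2 ± SE, edgeR adjusted p = 0.0219) and 0.67 ± 0.16 at 6 h (adjusted p = 0.0105). The value at 3 h was lost in 6 of 20 fits without 1 library (adjusted p up to 0.0801), and that at 6 h was kept in all 20. With treatment ignored, neither the value at 3 h (0.56, edgeR adjusted p = 0.095) nor that at 6 h (0.50, 0.0775) passed. PTPN22 at 6 h differed by 0.55 ± 0.11 (adjusted p = 0.00394), kept in all 20 fits, its WT level having fallen to that of CD47-.

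LCP2 at 6 h moved by -0.66 ± 0.18 in CD47- relative to WT (edgeR adjusted p = 0.021), a call lost in 8 of 20 fits with adjusted p up to 0.102. At 3 h its difference of -0.60 did not pass (adjusted p = 0.0744), but did without the CD47- CD3+CD28+TSP1 library at 1 h (-0.74, adjusted p = 0.0369) or at 3 h (-0.81, adjusted p = 0.00142). Without the latter library, 3 further differences at 6 h passed, in FYN (0.28, adjusted p = 0.0424), LAT (0.32, 0.0194) and UBASH3A (-0.38, 0.0403). With all libraries these had adjusted p of 0.083, 0.0937 and 0.0693. FYN also passed without the WT CD3+CD28+TSP1 library at 1 h (0.39, adjusted p = 0.0335), LAT without the CD47- CD3+CD28+TSP1 library at 1 h (0.43, 0.0208) and UBASH3A without the WT TSP1 library at 6 h (-0.49, 0.0222). Over 25 alternative settings, which include the fits without 1 library, the 6 h difference passed in 4 for FYN, 4 for LAT and 3 for UBASH3A.

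Activation and thrombospondin-1 were each tested in 2 ways per line, with the corresponding differences between lines, giving 12 comparisons that share libraries. With all libraries and the filter on low counts, no member passed in any of them by edgeR or limma-voom, and DESeq2 passed 1, ZAP70, in a difference between the lines. Over all genes, 15 passed for CD3+CD28+TSP1 against TSP1 in WT (0.0919%), 1 for the line difference in TSP1 against untreated (0.00612%), and 0 in the other 10. At an unadjusted p under 0.05, CD3+CD28+TSP1 against TSP1 had 3 members in WT (5% of all genes) and 1 in CD47- (16.1%), and CD3+CD28 against untreated had 1 in WT (8.32%) and 1 in CD47- (4.02%). For thrombospondin-1 added to CD3+CD28 there were 0 in WT (2.24%) and 2 in CD47- (10.8%), and for TSP1 against untreated 1 in each line (7.14% and 8.61%). The line differences gave 2 (CD3+CD28 against untreated, 8.33%), 3 (CD3+CD28+TSP1 against TSP1, 6.42%), 0 (CD3+CD28+TSP1 against CD3+CD28, 2.41%) and 1 (TSP1 against untreated, 14.1%). Each untreated group is a single library.

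LAT in WT shows the size of the differences with activation. With thrombospondin-1 present, CD3+CD28 libraries held 127, 243 and 181 CPM at 1, 3 and 6 h against 102, 179 and 158 CPM with thrombospondin-1 alone, higher at each time. The log2 difference was 0.32 (edgeR adjusted p = 0.446). For thrombospondin-1, ZAP70 in CD47- at 1 h was at 111 CPM untreated and 72.7 CPM with thrombospondin-1, while in WT it was at 188 and 228 CPM. The fitted log2 change in CD47- was -0.55 (edgeR adjusted p = 0.424) and its difference from WT -0.86 (adjusted p = 0.217). DESeq2 gave -0.87 with an adjusted p of 0.0387 for the latter, and edgeR passed it without the WT CD3+CD28 library at 1 h (-0.96, adjusted p = 0.0429) or the CD47- CD3+CD28+TSP1 library at 3 h (-0.90, 0.0466). Without the filter on low counts, ZAP70 passed by edgeR both in CD47- (-0.57, adjusted p = 0.00286) and in the difference (-0.90, adjusted p = 0.0005).

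Isoform expected counts asked whether particular transcripts carried these differences. Of 55450 isoforms tested for level, 15.1% differed between the lines, and 5 of the 21 isoforms with at least 10% of a member's counts did. ZAP70-205, annotated as a retained intron and spanning chr2:97732929-97739859, was lower in CD47- by 1.23 on the log2 scale (edgeR adjusted p = 1.11e-07), and the coding ZAP70-201 had a difference of -0.84 (adjusted p = 0.056). The ZAP70 counts are thus divided between a coding transcript and one that is not, which held 46.4 ± 5.18% of the gene's counts in WT and 38.1 ± 6.43% in CD47- (SD, 10 libraries each). PLCG1-201 was 0.78 higher (adjusted p = 0.000591) and PLCG1-202 0.52 higher (adjusted p = 0.0456, lost in 13 of 20 fits without 1 library, up to 0.0849), so both forms of this gene shared the direction. Without the CD47- CD3+CD28+TSP1 library at 3 h, PLCG1-202 was 0.35 higher and did not pass (edgeR adjusted p = 0.06545). LCP2-201, the full-length form of 533 codons, was 0.68 higher (adjusted p = 0.00562).

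Of the PTPN22 isoforms examined, the form that lacks the 72-base exon printed above passed for level. PTPN22-211 was lower in CD47- by 0.94 on the log2 scale (edgeR adjusted p = 0.00201), while PTPN22-201, which keeps the exon, had a difference of -0.02 (adjusted p = 0.967) and PTPN22-202 one of -1.09 (adjusted p = 0.134). Their shares of the gene's counts were 38.5 ± 6.73% and 44.1 ± 8.80% in WT and 27.9 ± 11.2% and 59.2 ± 10.1% in CD47-, with ranges that overlapped. The test of usage, each isoform against the others of its gene (edgeR diffSpliceDGE), did not pass for either (adjusted p = 1 for both). Of 49951 isoforms tested for usage 0.647% passed, and 0 of these 21 did. Of the 21, LAT-203 alone had an unadjusted p under 0.05 for usage (edgeR diffSpliceDGE adjusted p = 0.126). With the replicate block 10 of the 21 passed for level and 1 for usage.

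Shares also moved with time, a comparison added after the shares had been seen. FYN isoform ENST00000538466, which is in the deposited table but not in GENCODE 44, held 0% (UT), 11.3% (CD3+CD28), 6.32% (CD3+CD28+TSP1) and 0% (TSP1) of FYN counts at 1 h in WT and 35.4, 24.6 and 24.5% at 6 h. In CD47- it held 4.87, 0.0757, 8.62 and 0.625% at 1 h and 24.0, 27.1 and 31.6% at 6 h. The 6 h libraries lay above all 1 h libraries in both lines. Its usage rose by 2.63 in WT and 2.99 in CD47- on the log2 scale (edgeR diffSpliceDGE adjusted p = 0.00272 and 0.000322), where 1.6% and 1.77% of isoforms passed. Because several 1 h libraries are at or near 0, these fitted values depend on the prior count. The fitted rise in the level of this isoform, 2.42 in WT and 3.08 in CD47-, did not pass (edgeR adjusted p = 0.183 and 0.0869). The uncertainty of assigning reads to isoforms was not modelled. The total FYN level changed little in CD47- and by -0.27 in WT at 6 h (edgeR adjusted p = 0.0075).

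FYN-203, which carries the 165-base exon, held 25.9 (UT), 26.6 (CD3+CD28), 19.8 (CD3+CD28+TSP1) and 28.8% (TSP1) of FYN counts at 1 h and 8.35, 10.8 and 9.89% at 6 h in WT. All 6 h libraries were below all 1 h libraries, but the usage test did not pass (-1.36, edgeR diffSpliceDGE adjusted p = 0.264). The FYN-203 level in WT changed by -1.57 on the log2 scale and passed (edgeR adjusted p = 0.000133). In CD47- its usage changed by -0.58 and its level by -0.48, and neither passed (edgeR adjusted p = 0.153 for level). FYN-205, the T cell form, held 37.5 ± 4.51% in WT and 39.7 ± 3.91% in CD47- over all times and was the most abundant form of the gene. LCK-202, which encodes the 509-codon kinase, held 14.5, 11.9, 18.0 and 15.8% of LCK counts at 1 h and 22.2, 25.6 and 23.1% at 6 h in WT, and 20.8, 17.6, 16.7 and 15.3% and then 31.1, 30.0 and 29.8% in CD47-. Its usage rose in CD47- by 0.78 (adjusted p = 0.0158, lost in 6 of 20 fits without 1 library, up to 0.0852), and the WT value was 0.65 (adjusted p = 0.0864, passing without the WT CD3+CD28+TSP1 library at 1 h at 0.76 and 0.0441, or the CD47- CD3+CD28+TSP1 library at 3 h at 0.65 and 0.0409). The LCK-202 level rose by 0.94 in WT and 0.84 in CD47- on the log2 scale (edgeR adjusted p = 0.00027 and 0.00065). The difference between the lines in the changes of usage passed for 0 of the 21 member isoforms and 0.438% of all.

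**Figure D4:**
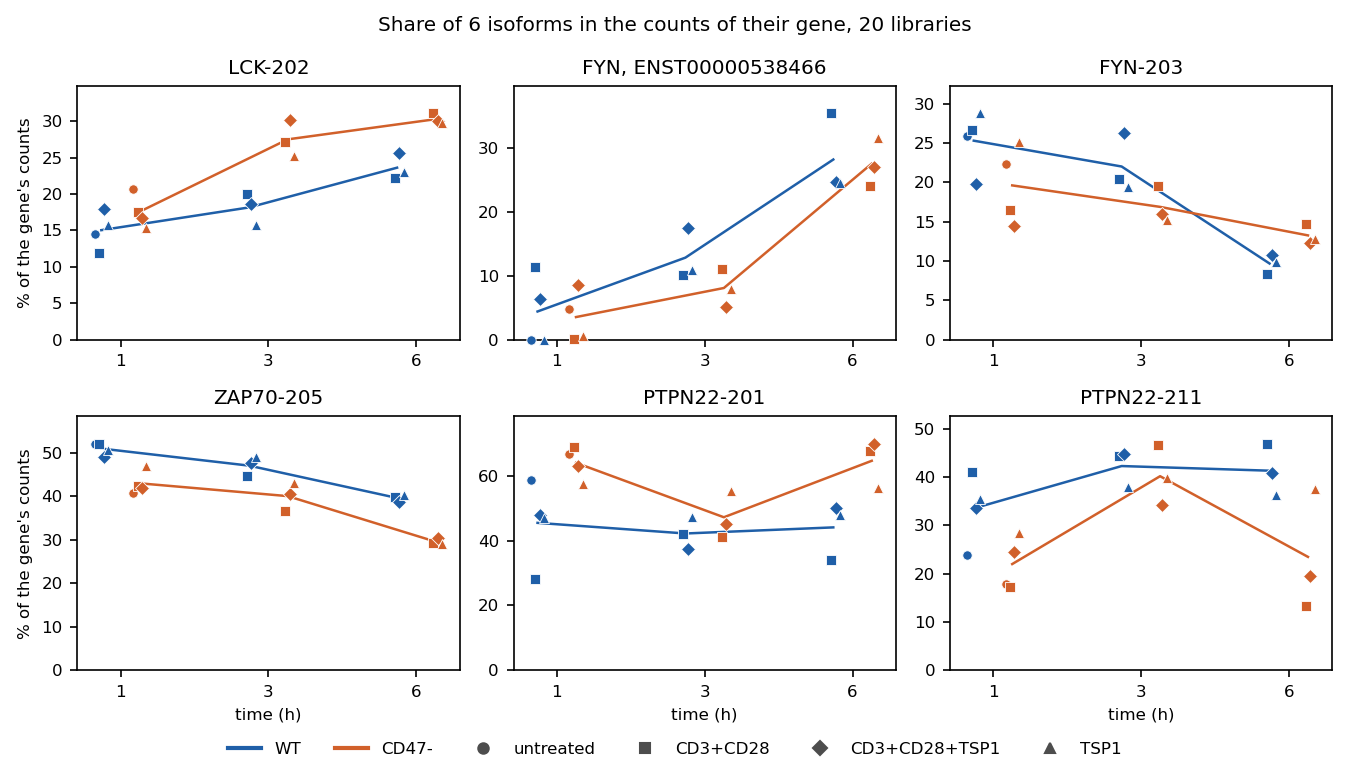
Share of the gene's expected counts (%) held by 6 isoforms of LCK, FYN, ZAP70 and PTPN22 against time in h, with 1 point per library and lines through the mean of each cell line. FYN ENST00000538466 and LCK-202 are higher at 6 h than at 1 h in both lines, the ZAP70-205 share is lower with a usage change that did not pass (edgeR diffSpliceDGE adjusted p = 1 in WT and 0.812 in CD47-), and the PTPN22 isoforms differ between the lines with overlapping ranges.

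Other genes of the pathway were taken from 6 lists of 68 genes, of which 65 were tested. Between the lines 41 passed (63.1%, against 40.4% of all genes), 30 higher and 11 lower in CD47-, with a median log2 difference of 0.28. The Src, Tec and Syk family kinases had 7 of 8 passing (5 higher, 2 lower): SYK, the relative of ZAP70, was lower by 0.92 (edgeR adjusted p = 0.000128) and YES1 lower by 0.71 (adjusted p = 0.0125). SYK and ZAP70 were thus both lower in CD47-, each by 0.92.

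Adaptors bound to LAT and SLP-76 had 10 of 15 passing (6 higher, 4 lower). VAV1, the Rac exchange factor, was higher by 0.51 (edgeR adjusted p = 0.000305) and FYB1, the SLP-76 partner ADAP, lower by 1.32 (adjusted p = 0.00332), while GRB2 had 0.11 (adjusted p = 0.213). A further list held inhibitory tyrosine kinases, their anchors, and phosphatases whatever their effect on the signal, and 8 of its 11 genes passed (5 higher, 3 lower). Among them were PTPRC (CD45), lower by 0.52 (adjusted p = 0.00108), and PTPN2, lower by 0.35 (adjusted p = 0.0029). PTPN11 stood at 0.00 (adjusted p = 0.974). PTPN22 was thus lower together with PTPRC and PTPN2, although most of the passing genes of that list were higher.

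Ubiquitin ligases and other negative adaptors had 7 of 11 passing (5 higher, 2 lower), with SLA higher by 0.47 (edgeR adjusted p = 0.00932) and CBL and ITCH at 0.33 and 0.01 (adjusted p = 0.144 and 0.934). In the Ras, diacylglycerol and PKC arm downstream of PLCG1, 4 of 10 passed over all times, all 4 higher, although at 6 h 1 was higher and 3 lower. Among the 4 was PRKCQ, the T cell protein kinase C theta, higher by 0.69 (adjusted p = 4.94e-05), while RASGRP1 stood at -0.02 and RASA2 at 0.17 (adjusted p = 0.972 and 0.432). The list of CD3 chains and coreceptors had 5 of 10 passing, all 5 higher over all times and 1 lower at each of 3 h and 6 h, with CD28 by 2.35 (adjusted p = 3.94e-10), CD3E by 0.18 (adjusted p = 0.0494) and CD3D at 0.13 (adjusted p = 0.422). The constant genes of the antigen receptor itself, which are not in that list, were lower in CD47-, TRAC by 3.08 and TRBC1 by 0.80 on the log2 scale (edgeR adjusted p = 4.57e-12 and 1.78e-05). Over time 30 and 38 of the 65 passed at 3 h and 6 h in WT (46.2% and 58.5%, against 34.3% and 50.5% of all genes) and 32 and 47 in CD47- (49.2% and 72.3%, against 38% and 53%). The changes differed between the lines for 8 and 22 (12.3% and 33.8%, against 4.28% and 16.6%).

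**Figure D5:**
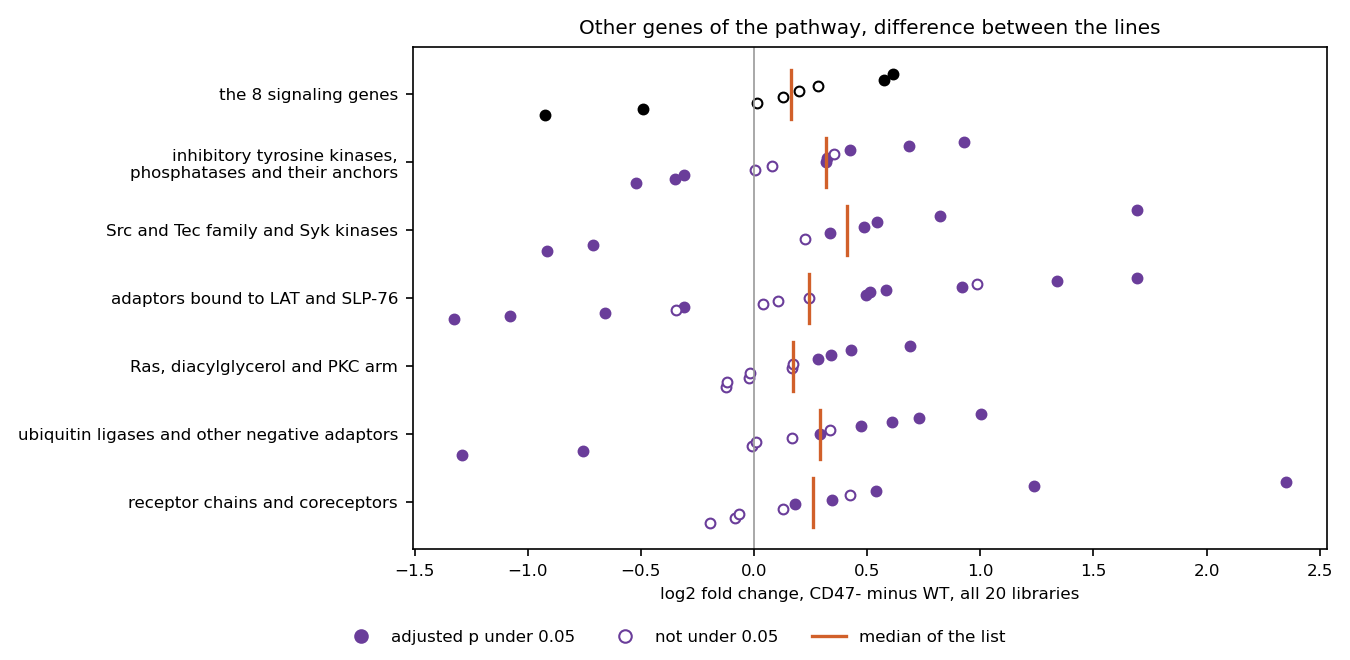
Log2 difference in level between CD47- and WT over all 20 libraries for the 8 members and the tested genes of the 6 pathway lists, 1 dot per gene, with a bar at each median. The medians of all 6 lists lie above 0, while the members include both the low value of ZAP70 and the high value of PLCG1.

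Genes whose levels followed each member most closely were found among 12495 genes by the smaller of the 2 correlations (Pearson r of log2 CPM, 10 libraries per line), as a description in which libraries share time and depth. UBASH3A was followed by PMEPA1 (r = 0.979 in WT and 0.983 in CD47-) and DTX1 (0.963 and 0.982), and ZAP70 by TTLL12 (0.967 and 0.959) and MAMDC4 (0.965 and 0.956). LAT went with CMTM3 (0.965 and 0.96) and TIMP1 (0.96 and 0.981), and PLCG1 with ASXL1 (0.962 and 0.943) and MADD (0.96 and 0.925). PTPN22 went with BTF3 (0.958 and 0.947) and MTHFD2 (0.932 and 0.971), and LCK with TUBA1C (0.961 and 0.947) and UQCRC1 (0.944 and 0.949). LCP2 went with TCF20 (0.894 and 0.961) and SSH1 (0.952 and 0.88), and FYN with KLHL20 (0.869 and 0.874) and RNF149 (0.86 and 0.875). By Spearman's rho, 5 of these 16 pairs were the same. Among the members themselves, LAT and PLCG1 ran opposite in both lines (r = -0.901 in WT and -0.766 in CD47-), as did PTPN22 and UBASH3A (-0.963 and -0.475). LAT had an r of 0.455 in WT and 0.886 in CD47- with UBASH3A, and of -0.187 and 0.885 with ZAP70, and whether these differ between the lines was not tested.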

How the data were processed

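RNA of 20 libraries was sequenced as paired reads from poly(A) selected RNA. Per the labels and the study's methods, the authors used Cutadapt 1.18 for trimming, STAR 2.4.2a for alignment to GRCh38 (hg38), and RSEM 1.3.3 with GENCODE 36 for the deposited expected counts per gene and per isoform. The strand setting is not given in the sources used here. The study also corrected a batch that it does not name, and this step was not repeated. Each deposited file also had 2 columns that match no sample and were not used.

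Expected counts were rounded. Genes were filtered with filterByExpr (minimum count 10, minimum total 15), scaled by TMM and tested with edgeR 4.0.16 in R 4.3.3 by quasi-likelihood with Benjamini-Hochberg adjustment over all 16327 genes and a threshold of 0.05. Line was fitted alone over 20 libraries, lines at each time in a fit with a mean per line and time, and time and treatment in a fit with treatment and time terms per line. Isoform usage was tested with diffSpliceDGE. Log2 differences are edgeR fits and CPM values are scaled by TMM. Depth ran from 16107921 to 31737616 counts per library, and its effect on these genes was not tested. Positions and lengths came from GENCODE 44 (60463 genes matched), and promoters from RefSeq.

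The members and gene lists were chosen with earlier results of these data known. Named were all 8 members, CD47 as a check of labels, from each pathway list the 3 genes with the highest mean CPM (1 of these is not reported here), isoforms with at least 10% of a member's counts in either line, and for each member the 2 genes of highest likeness. Alternatives were DESeq2 1.42.0, limma-voom 3.58.1, no filter and a filter at 1 CPM, other models, subsets of pairs, a replicate block and leaving out each library. Pairing came from the treatment and time that a WT and a CD47- library share: deviations of the 10 pairs from their line means correlated at 0.125 to 0.651, all above 0.1, so the block was treated as a pairing, although the matched library was the best correlated one of the other line in only 2 of the 10. On simulated counts for the line comparison (16124 genes), 40.3% of genes changed 1.5-fold, 80.6% of those changed 2-fold and 90.9% of those changed 4-fold were recovered. For WT at 6 h (16178 genes) these were 46.3%, 71.6% and 89.4%. On simulated isoforms between the lines (55450), usage was recovered for 4.48%, 67.2% and 80.3% at 2-, 4- and 8-fold.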

Additional observations from a re-analysis of the deposited data

Results flagged for a closer look

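In 32 groups of 4 to 10 libraries, a member's highest or lowest library was compared with the rest by Dixon's ratio, its gap to the nearest library over the range of the group. For independent groups of like libraries, chance alone is beyond the limit in about 1 in 20. The groups here mix treatments, those of 10 also mix times, and those of 4 lie within those of 10. Beyond the limit were 5 of the 32 groups, a count that cannot be set against that rate. Of these, 3 came from 1 library, CD47- CD3+CD28+TSP1 at 3 h, which also had the lowest depth: LCK was lowest there (449 CPM, ratio 0.528), PTPN22 was lowest (28.0 CPM, ratio 0.5) and LCP2 was highest (147 CPM, ratio 0.66), against a limit of 0.466 for 10 libraries. The part of depth in these values was not tested, and members whose call changed without this library are given both ways. At 1 h, FYN was highest in WT CD3+CD28 (74.7 CPM, ratio 0.854) and UBASH3A was highest in untreated CD47- cells (27.6 CPM, ratio 0.843), against a limit of 0.829 for 4 libraries.

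Changes over time that differed between the lines by the edgeR test of the difference itself were those of ZAP70, which moved up by 0.734 more in CD47- than in WT at 3 h and by 0.671 more at 6 h, of PTPN22 at 6 h (0.555) and of LCP2 at 6 h (-0.663), all on the log2 scale. In the case of PTPN22 the WT level fell from 58.1 to 65.5 CPM at 1 h to 40.5 to 43.1 CPM at 6 h, while CD47- libraries held 37.0 to 42.5 CPM at 1 h and 37.2 to 40.9 CPM at 6 h.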

How the results depend on the processing

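Among results of the members, settings other than leaving out a library kept direction and side of the threshold in 447 cases, while 23 passed in addition, 26 no longer passed and 10 changed sign; leaving out 1 library at a time gave 1684, 22, 99 and 32. The cause of these shifts was not tested. With the replicate block (8957 genes and 5 members between the lines), the isoforms passing were 10 of the members for level, and 719 of all and 1 of the members for usage, and among genes it added UBASH3A and changed no other call of a member.

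Genes passing between the lines were 6596, against 4067 in activated pairs alone and 2706 in unactivated pairs alone, which hold fewer libraries. In the model with treatment and time (lines compared in the TSP1 condition), 4 members passed at 1 h, and FYN at 1 h was 0.0925, LCK at 3 h 0.00303 and PTPN22 at 6 h 0.0779. FYN over all times was -0.0266 in activated pairs. With limma-voom, LCK at 3 h was 0.197 and UBASH3A at 6 h 0.0189, and with the filter at 1 CPM UBASH3A was 0.00153. Within CD47-, 3 members passed at 3 h in a fit of 1 line alone and 3 at 6 h by limma-voom, LCK at 6 h was -0.0134 with treatment ignored, and PTPN22 at 6 h was 0.0139 with the filter at 1 CPM and 0.00898 in 1 line alone.

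For the line difference in time at 3 h, 1069 genes and 3 members passed by DESeq2, 1397 and 2 without a filter and 0 members with treatment ignored; at 6 h 5 members passed with the filter at 1 CPM. Activation calls summed over 4 comparisons were 15, against 63 by DESeq2, 28 by limma-voom, 1266 without a filter, 2 with time shared between the lines and 64 in 1 line alone. Those of thrombospondin-1 were 0, against 5 by DESeq2, 1275 without a filter (1 of them a member) and 11 in 1 line alone. Those of the line difference in treatment response were 1, against 206 by DESeq2 (1 a member), 0 by limma-voom, 1542 without a filter (1 a member), 0 with the filter at 1 CPM and 0 with time shared. Isoform usage passed for 1422 isoforms between the lines without a filter. Over time it passed for 1723 (2 of members) in WT and 1909 (1) in CD47- with the filter at 1 CPM, for 1 member isoform in CD47- without a filter, and for 566 without and 59 with that filter as the line difference.

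Leaving out 1 library in turn gave, between the lines, FYN -0.0133 to 0.0517 over all times and -0.0303 to 0.0131 at 1 h, LCK -0.136 to 0.0621 at 3 h and UBASH3A -0.0934 to 0.0495 at 6 h. In WT at 3 h LCK was -0.0201 to 0.102 and FYN -0.0506 to 0.1005. In CD47- 2 to 6 members passed at 3 h, with LCP2 at -0.0104 to 0.313, and 3 to 5 at 6 h, with LCK at -0.0633 to 0.149, FYN at -0.0487 to 0.06002 and PTPN22 at -0.0544 to 0.029. The line difference in time passed for 169 to 1066 genes and 0 to 2 members at 3 h, with PTPN22 at -0.142 to 0.0305, and for 1459 to 4273 genes and 2 to 6 members at 6 h, with PLCG1 at -0.00249 to 0.174. Activation calls were 0 to 248, thrombospondin-1 calls 0 to 79 and calls of the difference 0 to 624, with 0 to 1 member. Member isoforms passing for usage were 0 to 1 between the lines and 1 to 2 over time in each line. No value that passed as reported changed sign, and of those that changed sign LCK at 3 h by limma-voom passed (adjusted p = 0.0275). The CPM of 3 counts was 0.0979 to 0.156, and the lowest level of any member gene was 17.3 CPM (UBASH3A in WT). Some member isoforms had 0 counts in a library, such as FYN ENST00000538466 in WT. The effect of depth was not tested.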
